A study of Rattus norvegicus with 6 samples.

Results

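The matrix metalloproteinases (MMP), the ADAM and ADAMTS proteases, the ADAMTS-like (ADAMTSL) proteins and the tissue inhibitors of metalloproteinases (TIMP) were examined in atrial fibroblasts of the rat given si-GPD1L or si-NC. The members were all protein-coding genes whose symbol is Mmp, Adam, Adamts or Adamtsl with a number, or Timp1 to Timp4. This rule took 78 of the 40154 genes of the deposited table, which holds 22764 protein-coding genes. They comprised 23 MMP, 27 ADAM, 19 ADAMTS, 5 ADAMTSL and 4 TIMP genes. The genes were chosen by name and not by any measured value, although with earlier results of these data known. Poly(A) RNA was sequenced from 3 si-NC and 3 si-GPD1L libraries. The cells of both groups came from the atria of Sprague-Dawley rats aged 1 to 3 days, were separated from myocytes by preplating for 1.5 h after trypsin digestion, and were collected 24 h after transfection with a negative-control siRNA (si-NC) or an siRNA against GPD1L (si-GPD1L). Every sample of both groups also carries the treatment label "Atrial differentiation", which the labels do not explain. The digit that ends the names si-GPD1L1 to si-GPD1L3 was read as a replicate number, although no source says whether it numbers replicates or different siRNAs. Nothing states that the libraries of a group came from separate animals or cultures, so the p-values measure the spread between these libraries, which may be technical.

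MMPs are zinc-dependent endopeptidases, secreted or anchored in the cell membrane as inactive precursors, which cleave collagens and other matrix proteins. ADAM proteins are membrane-bound relatives with a disintegrin domain, and the active ones shed growth factors and receptors from the cell surface. ADAMTS proteases are secreted, carry thrombospondin repeats and cleave procollagens, proteoglycans and microfibril proteins, whereas the ADAMTSL proteins lack the protease domain. TIMPs bind and inhibit these enzymes. In the heart, fibroblasts are a main source of many of them, and the balance of proteases and inhibitors sets the turnover of the fibrillar matrix.

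The libraries held 16892255 to 20149732 counts. The normalized count of Gpd1l, the targeted gene, was 262, 332 and 313 in si-NC and 220, 208 and 302 in si-GPD1L (replicates 1, 2 and 3, the order used throughout). Replicate 3 of si-GPD1L lay within the si-NC range, and the difference did not pass the test (log2 fold change -0.31, standard error 0.15, adjusted p = 0.234, edgeR's quasi-likelihood test). By an exact, two-sided permutation test p was 0.2, and 3 against 3 libraries cannot give a p below 0.1. The fibroblast label was checked against 10 fibroblast markers, all of which passed the filter on low counts. Their summed TPM was 33859 to 43691 in si-NC against 41109 to 44260 in si-GPD1L, although Dcn and Lum fell (log2 fold changes -0.66 and -0.77). Cardiomyocyte, macrophage and mesothelial markers were present in both groups, and none of these 3 lists had a member past the test. The summed TPM of the cardiomyocyte markers was 2531 to 2666 in si-NC against 2323 to 2475 in si-GPD1L. For the macrophage markers it was 201 to 229 in si-NC against 184 to 272 in si-GPD1L. For the mesothelial markers it was 18.05 to 20.29 in si-NC against 15.56 to 17.78 in si-GPD1L. Of 6 smooth muscle and pericyte markers 1, Cspg4, rose. Of 5 neutrophil markers, S100a8, S100a9, Mpo and Elane had at most 3 counts in any library. Both interferon-stimulated and endothelial markers moved with the groups. All 10 interferon-stimulated genes rose, and their summed normalized count was 2737 to 3087 in si-NC against 21315 to 26319 in si-GPD1L. These genes were listed because they had moved with the groups in earlier results of these data, so their rise was known beforehand. Of 8 endothelial markers 7 were tested and 4 rose, with a summed normalized count of 679 to 837 in si-NC against 1002 to 1182 in si-GPD1L. The part of these marker changes in the differences described here was not tested. In a bulk sample, fewer cells of a type and less RNA per cell cannot be told apart. Among si-NC libraries, replicate 1 stood apart, with a chi-square of 19.7 and 27.4 per degree of freedom against the other two, which differed from each other by 8.35. The 3 pairs of si-GPD1L libraries differed by 3.89 to 5.81.

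A few genes held most of the RNA of the family. On the TPM scale, which divides counts by gene length and allows genes to be compared, Mmp14, Mmp2 and Timp2 together made up 61.3% of the summed TPM of all 78 members. Mmp14 encodes the membrane-bound protease that activates the Mmp2 precursor in a complex with Timp2, and Mmp2 is a gelatinase. Mmp14 was at 1274, 1508 and 1525 TPM in si-NC and 1198, 1209 and 1298 TPM in si-GPD1L. Mmp2 was at 781, 950 and 1029 TPM in si-NC and 938, 926 and 949 TPM in si-GPD1L. Timp2 was at 785, 1027 and 1064 TPM in si-NC and 809, 858 and 928 TPM in si-GPD1L. The ranges of these 3 genes overlapped between si-NC and si-GPD1L on this scale, and Mmp2 and Timp2 also overlapped each other, so that their order is not fixed. Adam19 followed at a mean of 328 TPM over the 6 libraries, then Timp1 at 251 TPM, Adamts2 at 143 TPM, Mmp23 at 133 TPM and Adamts10 at 102 TPM. In all, 47 members had a mean above 1 TPM and 33 a mean above 10 TPM.

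**Figure D1:**
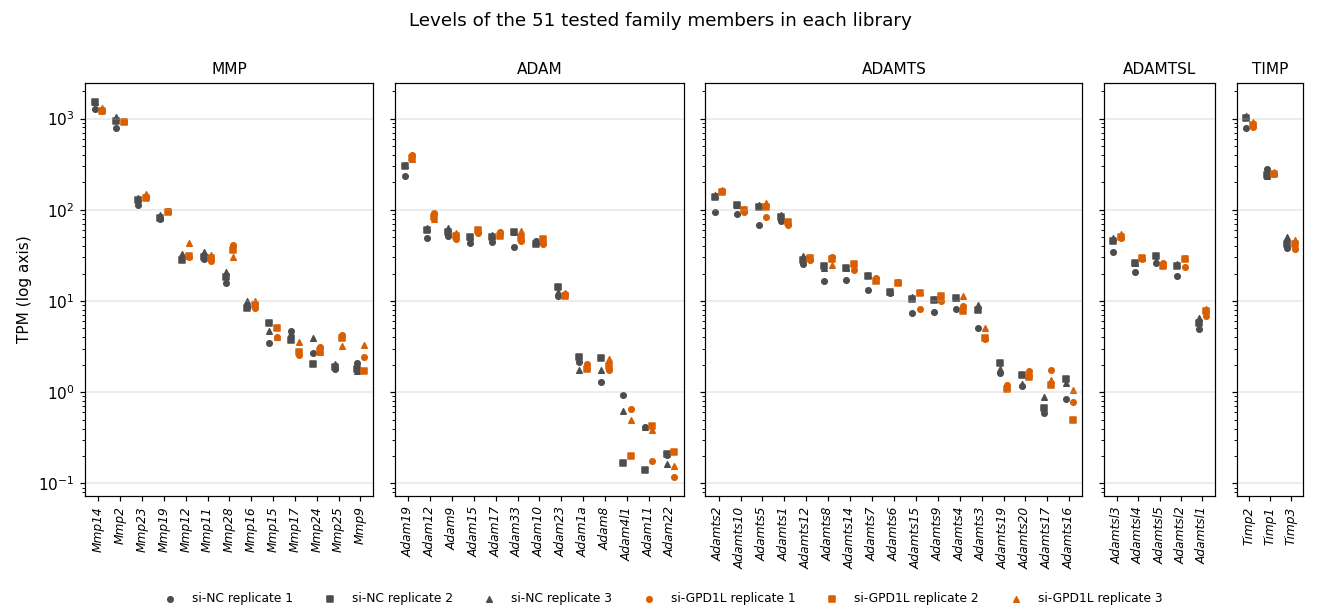
TPM (log axis) of the 51 tested family members in each of the 6 libraries, by subfamily and ordered by mean level, with si-NC in grey and si-GPD1L in orange and 1 symbol per replicate number. Mmp14, Mmp2 and Timp2 lie near 1000 TPM in both groups, whereas Adamts17, Adamts19 and Mmp25 lie below 5 TPM.

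The summed TPM of the MMP genes was 2669 ± 288 (SD, n = 3) in si-NC and 2536 ± 79.6 in si-GPD1L. For the ADAM genes it was 608 ± 72.8 in si-NC and 738 ± 12.2 in si-GPD1L, and Adam19 held 48.7% of it. ADAMTS genes summed to 551 ± 92.1 TPM in si-NC and 589 ± 29.3 TPM in si-GPD1L, and TIMP genes to 1253 ± 132 and 1160 ± 70.9 TPM. The ADAM sums did not overlap between the groups, with 525 to 660 TPM in si-NC against 730 to 752 TPM in si-GPD1L. The other 3 sums overlapped. The TPM scale ran 0.084 log2 units higher in si-GPD1L than the normalized counts did, as the mean over libraries, and si-NC replicate 1 ran lowest (-0.12). Differences between the groups are therefore given in normalized counts, which are counts scaled by edgeR's TMM factors to the mean library size.

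The comparison of si-GPD1L with si-NC asked which genes change when GPD1L is targeted in fibroblasts. Of the 78 members, 51 passed the filter on low counts and were tested in 1 fit with all other genes. An adjusted p under 0.05 was reached by 10 of the 51 (19.6%), against 6.36% of all 14852 genes tested. Mmp28, Adam12, Adamts17, Adamts6 and Adam19 rose, a direction in which 4.03% of all genes tested were called. Adamts3, Adamts1, Mmp17, Adamts19 and Mmp14 fell, a direction in which 2.33% of all genes tested were called. The tested members were counted more deeply than most genes, with a median normalized count of 838 against 341 for all genes tested. No member was past both thresholds of the study's methods, an adjusted p under 0.05 and a log2 fold change over 1 in size, which 1.62% of all genes tested passed, and DESeq2's Wald test and edgeR's exact test also put 0 members past both. At an unadjusted p under 0.05 there were 21 of the 51 tested members, against 3324 of all 14852 genes tested (22.4%). The groups did not overlap for 20 members (39.2%), 11 higher and 9 lower in si-GPD1L, against 29.0% of all genes tested. The median log2 fold change of the 51 members was -0.049, that of all genes tested -0.0049, and the members ran from -0.85 to 0.93. By subfamily, 3 of 13 tested MMP, 2 of 13 ADAM, 5 of 17 ADAMTS, 0 of 5 ADAMTSL and 0 of 3 TIMP genes were called. Of the uncalled subfamilies, 3 ADAMTSL genes and 1 TIMP gene had an unadjusted p under 0.05. With the edgeR exact test 1 ADAMTSL gene was called, and with DESeq2's Wald test the same 10 members were called as with the quasi-likelihood test.

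**Figure D2:**
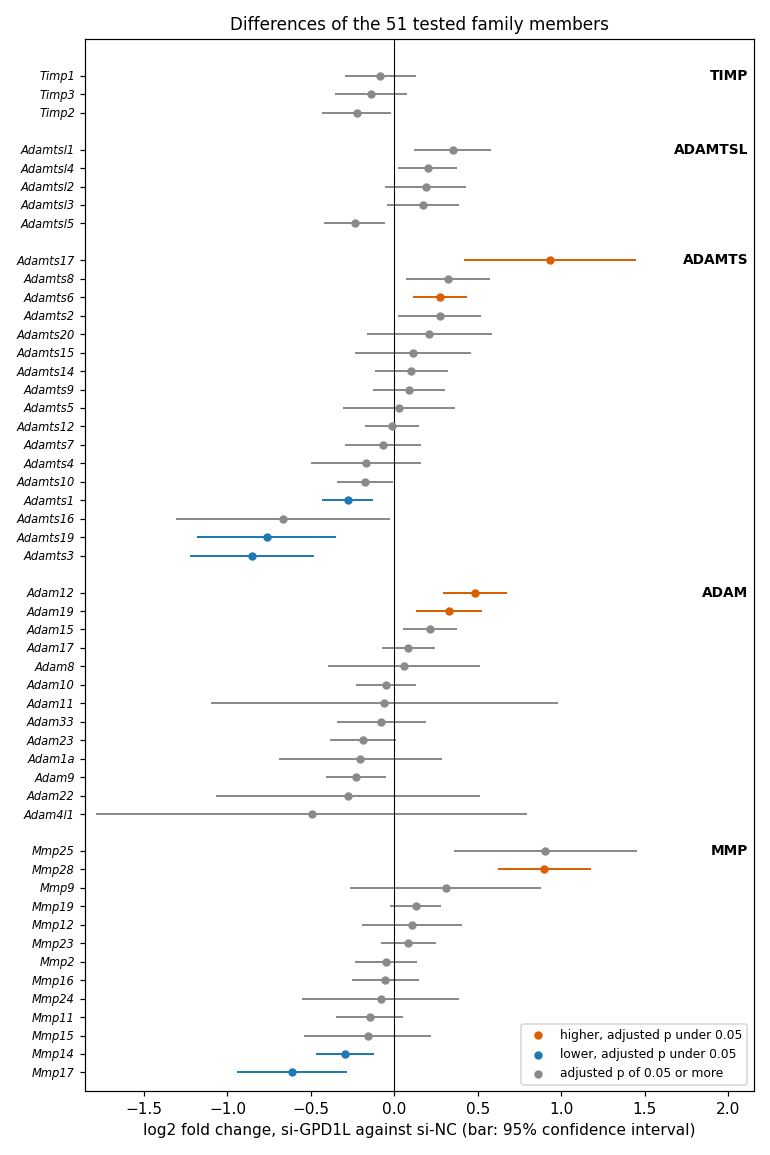
Log2 fold change of si-GPD1L against si-NC for the 51 tested members, ordered within each subfamily, with bars for the 95% confidence interval from edgeR's quasi-likelihood fit. The 5 orange and 5 blue points have an adjusted p under 0.05, the values run from -0.85 (Adamts3) to 0.93 (Adamts17), and all 3 TIMP points lie below 0 with adjusted p-values over 0.05.

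Among the MMPs, 1 of 13 tested genes rose and 2 fell. Mmp28 (epilysin, a secreted MMP that a furin-like protease can activate) had the smallest adjusted p of the family. Its normalized count was 205, 220 and 247 in si-NC and 483, 416 and 354 in si-GPD1L. Every si-GPD1L library was above every si-NC library, and the mean level was 1.86-fold higher (log2 fold change 0.90, standard error 0.13, adjusted p = 0.000892, edgeR's quasi-likelihood test). In TPM it went from 18.2 ± 2.52 to 35.9 ± 5.36 (SD, n = 3). The gene lies on chromosome 10, minus strand, at 70660691 to 70681672 in rn6, the rat build of the deposited coordinates. With any 1 library left out, its adjusted p stayed between 0.000115 and 0.00841. Its promoter, from 250 bases before to 50 after the RefSeq start in the GRCr8 build (chr10:68762328-68762627, minus strand), is shown because Mmp28 was the most clearly changed member, and it holds neither of the motifs searched, so no base is in capitals.
Mmp28: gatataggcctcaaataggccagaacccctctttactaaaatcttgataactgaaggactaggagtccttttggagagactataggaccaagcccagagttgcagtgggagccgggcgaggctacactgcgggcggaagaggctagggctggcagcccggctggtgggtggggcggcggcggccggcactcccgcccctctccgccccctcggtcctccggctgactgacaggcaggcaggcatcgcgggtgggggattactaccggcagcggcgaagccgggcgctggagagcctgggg

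The membrane-type MMPs were all 6 tested. Mmp14 and Mmp17 fell, a direction in which 2.33% of all genes tested were called, and the other membrane-type MMPs were not called. The normalized count of Mmp14 was 25776, 28297 and 28176 in si-NC and 21778, 21715 and 23396 in si-GPD1L. The groups did not overlap, and the level fell by 18.7% (log2 fold change -0.30, 95% confidence interval -0.47 to -0.13, adjusted p = 0.0410, edgeR's quasi-likelihood test). Without si-NC replicate 1 the adjusted p was 9.71e-05, and without any 1 of the other 5 libraries it was 0.0548 to 0.228. Mmp14 lies on chromosome 15, plus strand, at 33074441 to 33083666 (rn6). Mmp17, which is held in the membrane by a glycolipid anchor, had normalized counts of 282, 208 and 243 in si-NC and 140, 149 and 191 in si-GPD1L. Its groups did not overlap either, and it was 34.6% lower in si-GPD1L (log2 fold change -0.61, standard error 0.15, adjusted p = 0.0312). Leaving out si-GPD1L replicate 1 or 2 raised the adjusted p of Mmp17 to 0.154 or 0.159. Its gene model (chromosome 12, minus strand, 30353874 to 30728683, rn6) spans other genes, among them Cct6a at 178 TPM with a log2 fold change of 0.07. Mmp25, the other MMP with a glycolipid anchor, was counted at 22.7, 22.2 and 23.4 in si-NC and 48.0, 44.5 and 35.9 in si-GPD1L. These groups did not overlap, but the adjusted p was 0.0520 (log2 fold change 0.90, 95% confidence interval 0.36 to 1.45). Mmp25 had an adjusted p of 0.0095 with the edgeR exact test and 0.0383 where every library had to hold at least 10 counts. The transmembrane Mmp15, Mmp16 and Mmp24 had log2 fold changes of -0.16, -0.055 and -0.083 with adjusted p-values of 0.633 to 0.861.

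No difference was detected in the gelatinases. Mmp2 was at 19634, 22152 and 23631 normalized counts in si-NC and 21193, 20678 and 21268 in si-GPD1L, and the si-GPD1L range lay within the si-NC range. Its log2 fold change was -0.051 (95% confidence interval -0.23 to 0.13). Mmp9, the gelatinase of neutrophils and macrophages, was at 38.1 to 51.4 normalized counts in si-NC against 37.3 to 71.9 in si-GPD1L, an interval of -0.26 to 0.87 on the log2 scale. Of the remaining tested MMPs, Mmp11 (stromelysin-3) had a log2 fold change of -0.15, Mmp12 (macrophage elastase) 0.10, Mmp19 0.13 and Mmp23 0.083. Mmp19 was at 1313 to 1403 normalized counts in si-NC against 1465 to 1517 in si-GPD1L, with an adjusted p of 0.289.

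The interstitial collagenases and the classical stromelysins were nearly silent. The largest group of neighbouring members, 10 MMP genes within 378 kb on chromosome 8 (5522739 to 5900965, rn6), held Mmp13, Mmp12, Mmp1b, Mmp3, Mmp1, Mmp10, Mmp8, Mmp27, Mmp20 and Mmp7. Only Mmp12 passed the filter there, with normalized counts of 478, 408 and 468 in si-NC and 420, 429 and 607 in si-GPD1L. Mmp12 values overlapped between the groups. Mmp13, the main rodent collagenase, had raw counts of 0, 0 and 0 in si-NC and 0, 1 and 3 in si-GPD1L. Mmp3 had 1 raw count in 1 library, and Mmp7 had 1 to 8 raw counts in each library. A count of 0 in a library of this depth allows up to 3 counts. The promoters of all 10 genes of this group had an entry in RefSeq's GRCr8 table and were searched for TGANTCA, the motif of AP-1 (the Fos and Jun factors), and for TTCNNTTTC on both strands, a motif resembling the interferon-stimulated response element. The TGANTCA motif was present in 7 of the 10, in Mmp20 only as TGAATCA, against 7.33% of the 33469 promoters of the same length. Of the 44 members with a promoter outside this group, 2 held it. The TTCNNTTTC motif was present in 3 of the 10 (Mmp13, Mmp10 and Mmp27), against 9.71% of all promoters. Outside this group 1 of the 44 members held it, and none of the 36 tested members with a promoter did. The promoters of Mmp12, the 1 gene of the group with many counts, and its neighbour Mmp13 are shown to compare a counted with a nearly silent gene, and they were chosen after their values were seen. Capitals mark the motifs, which in Mmp12 (chr8:12866402-12866701, plus strand, GRCr8) are an AP-1 match 87 bases before the start, and in Mmp13 (chr8:12782579-12782878, plus strand, GRCr8) a TTCNNTTTC match 176 bases and an AP-1 match 66 bases before the start.
Mmp12: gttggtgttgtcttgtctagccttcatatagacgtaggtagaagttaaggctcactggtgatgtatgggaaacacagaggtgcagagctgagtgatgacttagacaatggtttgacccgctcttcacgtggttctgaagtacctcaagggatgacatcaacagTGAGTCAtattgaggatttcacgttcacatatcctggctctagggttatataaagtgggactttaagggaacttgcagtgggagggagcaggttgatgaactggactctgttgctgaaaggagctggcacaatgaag
Mmp13: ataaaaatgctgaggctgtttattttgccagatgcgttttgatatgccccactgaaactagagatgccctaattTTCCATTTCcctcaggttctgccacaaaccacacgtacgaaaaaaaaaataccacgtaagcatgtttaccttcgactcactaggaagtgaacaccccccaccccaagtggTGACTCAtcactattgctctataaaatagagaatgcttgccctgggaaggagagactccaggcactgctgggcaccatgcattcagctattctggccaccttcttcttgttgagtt
Both promoters hold the AP-1 letters within 100 bases of the start. Whether these letters bear on the count of either gene was not tested. A match of letters is a description and shows no binding.

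Of the 13 tested ADAM genes, Adam12 and Adam19 rose and none fell. Adam12 and Adam19 are closely related membrane proteases of mesenchymal cells that can shed ligands of the epidermal growth factor receptor family. The normalized count of Adam12 was 4629, 5246 and 5340 in si-NC and 7733, 6937 and 6567 in si-GPD1L. All 3 si-GPD1L libraries were above all 3 si-NC libraries, and the level was 39.6% higher (log2 fold change 0.48, standard error 0.086, adjusted p = 0.00527, edgeR's quasi-likelihood test). Its adjusted p stayed under 0.05 with any 1 library left out, up to 0.0479 without si-GPD1L replicate 1. Adam12 lies on chromosome 1, minus strand, at 205951840 to 206286294 (rn6) and overlaps Fank1, on the opposite strand, by 2313 bases. Fank1 was itself higher in si-GPD1L (log2 fold change 0.43, adjusted p = 0.0146, by the same test). No source states whether the counting used strand, so which gene, if any, the reads of the overlap were counted for is not known. The deposited gene length of Adam12 is 11275 bases, and how many of its reads fell in the overlap was not tested.

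Adam19, the ADAM gene with the highest TPM, had normalized counts of 12202, 14555 and 14676 in si-NC and 18420, 17028 and 16503 in si-GPD1L. The groups did not overlap, and the level was 25.4% higher (log2 fold change 0.33, 95% confidence interval 0.13 to 0.52, adjusted p = 0.0492). Adam19 was just inside the threshold, and its adjusted p was 0.0503 with DESeq2's size factors, 0.0601 with upper-quartile normalization, 0.0511 with at least 10 counts in every library and 0.0905 to 0.223 without si-NC replicate 2 or any 1 si-GPD1L library. It lies on chromosome 10, plus strand, at 31146107 to 31240582 (rn6). Its promoter (chr10:30992511-30992810, plus strand, GRCr8) was the only one among the 7 called members with an entry that held an AP-1 match, 169 bases before the start, and is shown with that match in capitals. None of the 7 held the TTCNNTTTC motif.
Adam19: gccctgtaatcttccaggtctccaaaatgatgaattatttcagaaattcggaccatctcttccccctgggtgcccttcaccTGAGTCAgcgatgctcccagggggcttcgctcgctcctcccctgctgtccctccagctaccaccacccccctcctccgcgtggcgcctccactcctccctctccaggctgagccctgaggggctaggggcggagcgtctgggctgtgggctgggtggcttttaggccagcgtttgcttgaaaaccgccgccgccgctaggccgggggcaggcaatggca

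The main sheddases showed smaller differences. Adam10 was at 1318 to 1547 normalized counts in si-NC against 1290 to 1452 in si-GPD1L, and Adam17, which releases tumour necrosis factor, at 1516 to 1636 in si-NC against 1570 to 1732 in si-GPD1L. Both overlapped between the groups, with 95% confidence intervals of -0.22 to 0.13 for Adam10 and -0.07 to 0.24 for Adam17 on the log2 scale. Adam9 was at 1324, 1366 and 1478 normalized counts in si-NC and 1091, 1171 and 1284 in si-GPD1L, with a log2 fold change of -0.23 and an adjusted p of 0.108. Adam15 was at 1180, 1278 and 1275 in si-NC and 1376, 1464 and 1485 in si-GPD1L, with a log2 fold change of 0.21 and an adjusted p of 0.0966. The groups did not overlap for these 2 genes, yet neither passed the adjusted threshold. Adam33, Adam8 and the testis gene Adam1a had log2 fold changes of -0.079, 0.058 and -0.20. Adam23, an adhesion protein without protease activity, was at 583 to 667 normalized counts in si-NC against 508 to 560 in si-GPD1L (adjusted p = 0.235). Its relatives Adam11 and Adam22, and Adam4l1, had under 20 normalized counts in every library, and their confidence intervals were the widest of the family. The 14 untested ADAM genes, most of them testis genes such as Adam2, Adam3a and Adam5, had at most 6 raw counts in any library, and 10 of them had 0 in all.

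**Figure D3:**
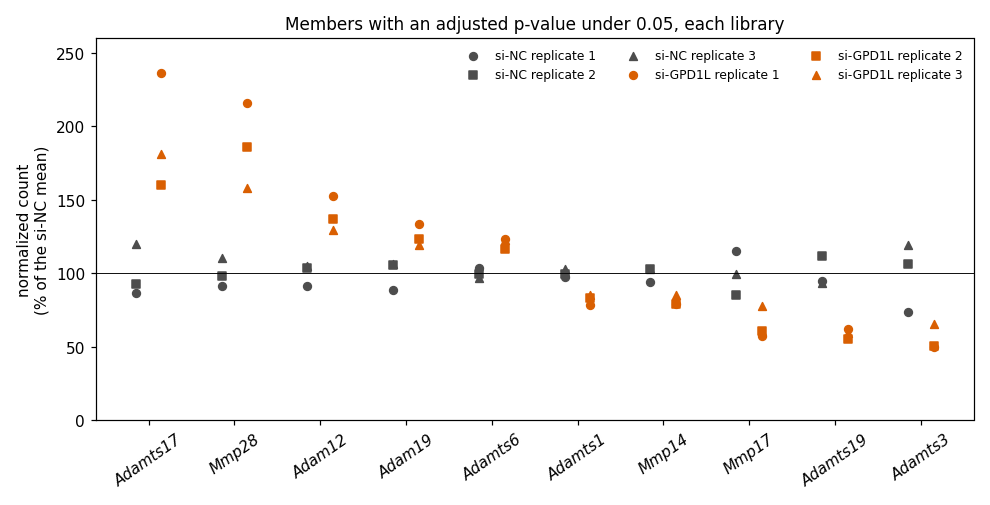
Normalized count of the 10 members with an adjusted p under 0.05, as a percentage of the si-NC mean of each gene, for every library (si-NC grey, si-GPD1L orange, linear axis from 0). No gene has overlapping groups, and the si-GPD1L libraries lie furthest from 100% for Adamts17, Mmp28 and Adamts3.

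The ADAMTS genes, the subfamily with the most tested members, had the most calls, with 2 of 17 tested genes higher and 3 lower. That was 29.4% of them, against 6.36% of all genes tested. Without si-GPD1L replicate 1 or 2, 0 ADAMTS genes were called, and without si-GPD1L replicate 3 or si-NC replicate 2 only 1 was. Of the procollagen N-proteinases, which remove the amino-terminal propeptide of fibrillar procollagens, Adamts3 fell. Its normalized count was 274, 395 and 442 in si-NC and 184, 187 and 243 in si-GPD1L. The groups did not overlap, si-NC replicate 1 lay nearest to the si-GPD1L libraries, and the level fell by 44.7% (log2 fold change -0.85, standard error 0.17, adjusted p = 0.0104, edgeR's quasi-likelihood test). Without si-GPD1L replicate 1 or 2 the adjusted p was 0.0701 or 0.0766, and without si-NC replicate 1 it was 5.59e-06 with a log2 fold change of -1.03. Adamts3 lies on chromosome 14, plus strand, at 19866278 to 20072896 (rn6). Adamts2, the N-proteinase with the highest level, was at 5112, 6963 and 7223 normalized counts in si-NC and 7835, 7535 and 7919 in si-GPD1L. These groups did not overlap, but its log2 fold change of 0.27 had an adjusted p of 0.174. Adamts14, the remaining N-proteinase, had a log2 fold change of 0.10 and overlapping groups. Adamts2 held 83.6% of the summed TPM of the 3 N-proteinases, which was 116 to 178 TPM in si-NC against 186 to 193 TPM in si-GPD1L.

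Of the 7 proteoglycanases, which cleave versican and aggrecan, Adamts1 fell and no other was called. Adamts1 was at 2728, 2791 and 2871 normalized counts in si-NC and 2195, 2336 and 2379 in si-GPD1L. The groups did not overlap, and the level fell by 17.6% (log2 fold change -0.28, standard error 0.067, adjusted p = 0.0291). This rose to 0.0705 to 0.166 without si-NC replicate 2 or any 1 si-GPD1L library. Adamts1 lies on chromosome 11, minus strand, at 25342119 to 25350938, next to Adamts5 (25411174 to 25456639, rn6), and both are transcribed from the same strand. Adamts5 was at 1562, 2280 and 2390 normalized counts in si-NC and 1706, 2219 and 2431 in si-GPD1L, with overlapping groups and a 95% confidence interval of -0.30 to 0.36 on the log2 scale. Adamts8, next to Adamts15 on chromosome 8, had a log2 fold change of 0.32 (adjusted p = 0.118) and overlapping groups. Adamts4, Adamts9, Adamts15 and Adamts20 had log2 fold changes of -0.17, 0.088, 0.11 and 0.21 with adjusted p-values of 0.506 to 0.726.

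The other ADAMTS genes moved in both directions. Adamts17 was at 29.7, 31.7 and 41.0 normalized counts in si-NC and 80.7, 54.5 and 61.9 in si-GPD1L. Its groups did not overlap, and its mean was 1.91-fold higher in si-GPD1L (log2 fold change 0.93, standard error 0.23, adjusted p = 0.0356). Adamts17 is required for normal fibrillin microfibrils, and lies on chromosome 1, plus strand, at 127802872 to 128126764 (rn6). Its adjusted p was 0.0653 to 0.172 without si-NC replicate 2 or any 1 si-GPD1L library. Adamts6, which also acts on microfibrils, was at 856, 822 and 797 normalized counts in si-NC and 1017, 964 and 1011 in si-GPD1L. The spread within each group was small and the groups did not overlap (log2 fold change 0.27, standard error 0.071, adjusted p = 0.0413). With any 1 library other than si-NC replicate 1 left out, the adjusted p of Adamts6 was 0.0756 to 0.184, and with upper-quartile normalization of all 6 it was 0.0581. It lies on chromosome 2, plus strand, at 34374142 to 34589676 (rn6). Adamts19 was at 70.2, 82.5 and 69.3 normalized counts in si-NC and 45.8, 40.9 and 43.9 in si-GPD1L. These groups did not overlap, and the level fell by 41.1% (log2 fold change -0.76, standard error 0.19, adjusted p = 0.0328). Its adjusted p was 0.0863 to 0.151 without si-NC replicate 2 or any 1 si-GPD1L library. Adamts19 lies on chromosome 18, plus strand, at 53915807 to 54099856 (rn6). Adamts10, the fibrillin-binding member with the highest level of this group, was at 3201 to 3675 normalized counts in si-NC against 3021 to 3178 in si-GPD1L, with a log2 fold change of -0.17 and an adjusted p of 0.188. Adamts16 was at 49.8 ± 10.1 normalized counts (SD, n = 3) in si-NC and 31.5 ± 11.5 in si-GPD1L, with overlapping groups (adjusted p = 0.202, edgeR's quasi-likelihood test). Adamts7 and Adamts12, which cleave cartilage oligomeric matrix protein, had log2 fold changes of -0.069 and -0.015. Adamts13, the protease of von Willebrand factor, had 4 to 12 raw counts in each library and was not tested, and Adamts18 had 0 in all.

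No ADAMTSL gene was called in the gene table. Adamtsl1 was at 328, 353 and 395 normalized counts in si-NC and 414, 465 and 492 in si-GPD1L, and the groups did not overlap (log2 fold change 0.35, adjusted p = 0.0656). Without si-NC replicate 3 its adjusted p was 0.0312. Adamtsl3, which had the highest TPM of the 5, overlapped between the groups, with a log2 fold change of 0.17. Adamtsl4, a fibrillin-binding protein, was at 832, 986 and 955 in si-NC and 1048, 1062 and 1074 in si-GPD1L, with a log2 fold change of 0.20 and an adjusted p of 0.157. Adamtsl5 was at 889, 990 and 843 normalized counts in si-NC and 794, 733 and 781 in si-GPD1L, with a log2 fold change of -0.24 and an adjusted p of 0.108. In the transcript table, 4 of its 7 transcripts had an adjusted p under 0.05. Adamtsl2, which also binds fibrillin, had a log2 fold change of 0.19 and overlapping groups.

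The TIMPs did not pass the test. Timp2 was at 10780, 13074 and 13337 normalized counts in si-NC and 9981, 10458 and 11349 in si-GPD1L, and 1 si-GPD1L library lay above the lowest si-NC library. Its log2 fold change was -0.23 (95% confidence interval -0.43 to -0.02, adjusted p = 0.175, edgeR's quasi-likelihood test). Timp2 was called (log2 fold change -0.32, adjusted p = 0.000908) when si-NC replicate 1 was left out. Timp1 was at 1892, 1504 and 1446 normalized counts in si-NC and 1518, 1485 and 1567 in si-GPD1L, an interval of -0.29 to 0.12 on the log2 scale. Timp3, which is bound to the matrix and also inhibits Adam17, was at 1442, 1471 and 1744 in si-NC and 1255, 1414 and 1560 in si-GPD1L, an interval of -0.35 to 0.07. Timp4 had raw counts of 5, 6 and 6 in si-NC and 3, 9 and 26 in si-GPD1L, and did not pass the filter.

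Without si-NC replicate 1, 14 members were called, 5 higher and 9 lower, and the added ones were Adam9, Adamts10, Adamtsl5 and Timp2. Leaving out si-GPD1L replicate 1 or 2 left 2 calls each, and leaving out si-NC replicate 2 or si-GPD1L replicate 3 left 4 each. Mmp28 and Adam12 were called in all 6 of these fits.

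**Figure D4:**
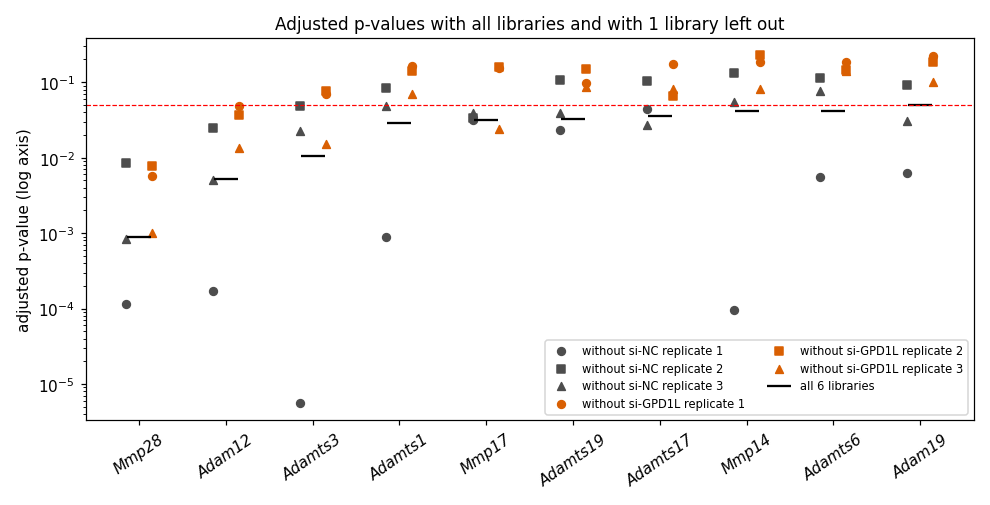
Adjusted p-value (log axis) of the 10 called members with all 6 libraries (black bars) and with each library left out (points, grey for si-NC and orange for si-GPD1L), with the threshold of 0.05 as a dashed line. All points of Mmp28 and Adam12 lie under the line, and every point but the one without si-NC replicate 1 lies above it for Mmp14 and Adamts6.

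Proteins that activate, inhibit or are cut by these enzymes were looked at as a list of 48 genes, of which 38 were tested and 6 called. Of these 6, 5 rose and 1 fell. Over all 14852 genes tested, 6.36% were called, 4.03% as higher and 2.33% as lower in si-GPD1L. Among the activating proteases, Plat, the tissue plasminogen activator, and Furin, which cleaves MMP and ADAM precursors, had log2 fold changes of -0.025 and 0.088 and were not called. Of 14 tested inhibitors and partners, Thbs2 fell, with 4692, 5517 and 6212 normalized counts in si-NC and 3124, 3787 and 4498 in si-GPD1L. Thbs2, a matrix protein that promotes the uptake of Mmp2 through Lrp1, had a log2 fold change of -0.53 (adjusted p = 0.0302), and without si-NC replicate 2 or 3, or si-GPD1L replicate 1 or 2, its adjusted p was 0.0518 to 0.152. Thbs1, Bsg and Lrp1 had the highest TPM of this group, with log2 fold changes of 0.25, -0.05 and 0.38 and adjusted p-values of 0.119 to 0.735. Of 6 tested relatives outside the naming rule, Pappa, which cleaves insulin-like growth factor binding proteins, rose. It was at 392, 505 and 584 normalized counts in si-NC and 818, 792 and 741 in si-GPD1L (log2 fold change 0.67, standard error 0.12, adjusted p = 0.00642). Bmp1, the procollagen C-proteinase, and Tll1, which with Pappa had the highest TPM of that list, had log2 fold changes of -0.12 and -0.26 and were not called.

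Of 8 tested substrates, 3 rose, a direction in which 4.03% of all genes tested were called. Versican (Vcan), a proteoglycan cut by Adamts1 and its relatives, was at 11963, 11650 and 12430 normalized counts in si-NC and 18486, 16931 and 16795 in si-GPD1L. The groups were far apart relative to their spread (log2 fold change 0.53, standard error 0.075, adjusted p = 0.000897, edgeR's quasi-likelihood test). Tgfa and Nrg1, ligands of the epidermal growth factor receptor family that ADAM proteases release, had log2 fold changes of 0.66 (adjusted p = 0.00599) and 0.39 (adjusted p = 0.0196). Without si-GPD1L replicate 1 or 2, the adjusted p of Nrg1 was 0.128 or 0.113. Tgfa was at 221, 217 and 215 normalized counts in si-NC and 394, 351 and 290 in si-GPD1L. Hbegf and Cd44 had log2 fold changes of 0.24 and 0.17 and were not called.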

How the data were processed

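Poly(A) RNA of rat atrial fibroblasts given si-NC or si-GPD1L was sequenced in 3 libraries per group, assigned from the sample labels. The authors deposited raw read counts per gene (40154 genes) and per transcript (55760), and TPM values, which are counts per gene length scaled to the same total in each library. The submitters' processing notes name bcl2fastq, HISAT2 2.1.0, HTSeq 0.12.4 and the rn6 build, and whether counting used strand is not given in the sources used here. Library totals were 16892255 to 20149732 counts. A count of 0 allows up to 3, which covers counting error only. TPM was used for levels between genes and was not tested.

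Counts were filtered by filterByExpr (14852 genes kept), normalized by TMM and tested with the quasi-likelihood F test of edgeR 4.0.16 in R 4.3.3, with Benjamini-Hochberg adjustment over all genes tested. The standard error is the log2 fold change divided by the square root of F. Members with an adjusted p under 0.05 are named with every library, the other tested members by level and log2 fold change within their role, and regulators where called or among the 3 highest of their list. 1 gene of the regulator list that met this rule is not reported here. The promoters of Mmp12 and Mmp13 were added after their values were seen. Members and lists were chosen with earlier results of these data known. The quasi-likelihood test was also run on simulated counts. Alternatives were DESeq2 1.42.0 and its size factors, upper-quartile normalization, edgeR's exact test, other filters and thresholds, the transcript table, a replicate block and each library left out. Promoters came from RefSeq (GRCr8), with 54 of 78 members matched, and no coordinates were converted between builds. Figures were drawn with matplotlib 3.10.9. The authors' tables of fold changes, p-values and enriched terms for the same comparison were not used, nor were transcript TPM values. Protein sequences were not used here.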

Additional observations from a re-analysis of the deposited data

How the results depend on the processing

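The count of 10 called members was 9 with DESeq2's size factors, 8 with upper-quartile normalization (without Adam19 and Adamts6), 10 with DESeq2's Wald test, 12 with the exact test, 14 with no filter beyond 1 count, 10 with at least 10 counts in every library, 9 by the transcript table (with Adamtsl5, without Adam19 and Adamts6) and 13 at an adjusted p under 0.1. It was 2 at an adjusted p under 0.01 (Mmp28 and Adam12). With 1 library left out, 2 to 14 members were called, and 0 to 1 were past both thresholds. The 6 called regulators and substrates became 4 to 11 with 1 library left out and 11 with no filter beyond 1 count. Libraries with the same replicate number did not deviate together (correlations -0.0144, -0.006 and 0.0435), so the numbers do not pair them, and with the replicate number as a block 8 members were called, without Adam19, Adamts19 and Adamts6 (adjusted p-values of 0.0633, 0.0513 and 0.0598) and with Adamtsl1 (0.0443). Of 751 values compared with an alternative, 674 kept direction and side of the threshold, 43 were no longer past it, 13 were newly past it and 21, of 14 uncalled members and all with a library left out, changed direction. Their log2 fold changes then ran from -0.11 to 0.011 (Adam10), -0.41 to 0.21 (Adam11), -0.92 to 0.080 (Adam4l1), -0.11 to 0.28 (Adam8), -0.044 to 0.037 (Adamts12), -0.012 to 0.28 (Adamts15), -0.14 to 0.16 (Adamts5), -0.19 to 0.0054 (Adamts7), -0.019 to 0.15 (Adamts9), -0.093 to 0.19 (Mmp12), -0.12 to 0.0056 (Mmp16), -0.12 to 0.0097 (Mmp2), -0.29 to 0.16 (Mmp24) and -0.16 to 0.046 (Timp1). No called member changed direction under these alternatives. Every fit with a library left out had fewer samples, including the fit without si-NC replicate 1, which called 14 members. Why other such fits lost calls was not tested. Members with under 20 normalized counts (Adam11, Adam22 and Adam4l1) had intervals too wide for differences of the sizes seen elsewhere in the family to be detected at this depth.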

Other observations

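Per transcript, 37822 transcripts were tested and 2226 had an adjusted p under 0.05. All tested transcripts of the 10 called members had the direction of their gene. For Adamts3, 3 of 3 were called, with log2 fold changes of -0.90 to -0.79. For Adam12 and Adamts17, 2 of 2 each were called, for Mmp17 2 of 3 and for Adamts19 1 of 2. None of the 5 transcripts of Adamts6 and not the 1 of Adam19 was called, with adjusted p-values of 0.0589 to 0.204 and 0.0645. Of the members not called as genes, only Adamtsl5 had called transcripts, 4 of 7, and all 7 had log2 fold changes below 0 (-0.30 to -0.20). Isoforms of a gene share reads in this table, so its rows are not independent.

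Members also lay together elsewhere in rn6. On chromosome 16, from 71810377 to 72210902, Adam9, Adam32, Adam5, Adam3a and Adam18 lay within 400.5 kb, and of these only Adam9 was tested. Adam34l, Adam34 and Adam26a, from 51728003 to 51828519 on the same chromosome, had 0 counts in all libraries.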
